A study of Mus musculus with 6 samples.

Results

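The genes described here are the Wnt ligands, their receptors and their secreted antagonists, measured in the ribosome-bound transcriptome of mouse hippocampal astrocytes. The members were taken by gene symbol, with earlier results of these data known, as all Wnt, Fzd, Sfrp and Dkk genes plus Lrp5, Lrp6 and Wif1. They numbered 40 of the 22086 genes in the count files, with 19 Wnt genes, 10 Fzd genes, 2 Lrp genes, 4 Sfrp genes, 4 Dkk genes and Wif1. Wnt proteins are secreted, lipid-modified signals that bind a Frizzled (Fzd) receptor on the receiving cell. When the co-receptors LRP5 or LRP6 join the complex, β-catenin is spared from degradation and acts in the nucleus with TCF/LEF factors, whereas other Wnt and Frizzled pairings act without β-catenin on cell shape and calcium. SFRP proteins and WIF1 bind Wnt ligands outside the cell, DKK1 and related DKK proteins bind the LRP co-receptors, and in the brain Wnt7a and Wnt7b are known as signals to the endothelium of growing vessels.

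The study asked how astrocytes change when they lack connexin 43 (Cx43), the gap junction protein encoded by Gja1. Polysomal mRNAs were purified from whole hippocampi of mice aged 6 weeks by TRAP (translating ribosome affinity purification), in which a GFP-tagged ribosomal protein L10a is pulled down. All animals carried Cx43 fl/fl and a heterozygous Aldh1l1:L10a-eGFP BAC transgene, which places the tagged protein under the astrocyte promoter of Aldh1l1. The 3 control libraries, labelled Littermates and called Cx43FL, carried nothing further. The 3 libraries labelled KO, called Cx43KO, also carried Gfap Cre, a recombinase driven by the human GFAP promoter, so that recombination depends on cells in which that promoter has been active. The number of animals behind each library is not given in the sources used here, and p-values measure the spread between these libraries.

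Gja1, the targeted gene, did not separate the groups. Its level was 92.0, 91.7 and 82.3 CPM (counts scaled to the depth of the library) in the libraries labelled Cx43FL and 87.2, 98.4 and 95.1 CPM in the libraries labelled Cx43KO, with a log2 difference of 0.078 (SE 0.28, adjusted p = 0.949 by edgeR). The genotype of the libraries labelled Cx43KO was therefore not visible in the counts of the targeted gene, and the names Cx43FL and Cx43KO are used below for the labels. Counts on genes ran from 14787303 to 15391214 in the libraries labelled Cx43FL and from 16056347 to 34733473 in those labelled Cx43KO. In these libraries 3 counts stood for 0.0926 to 0.199 CPM. The summed astrocyte markers reached 8112 to 21303 CPM and all 8 were counted in every library, while the 7 endothelial markers together stayed between 5.04 and 16.9 CPM. Markers of choroid plexus, neurons and microglia were also present, and their values are given below.

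Reads of 50 bases can be told apart between close relatives only where the sequences differ, so the stretches in which the leading members resemble each other are shown first. Wnt7a and Wnt7b, the highest Wnt genes per length, differ at 7 bases of the following 63-base coding window (positions 590 to 652 from the start codon in both), which encodes part of the conserved stretch holding the serine that the acyltransferase Porcupine modifies. Capitals mark the differing bases.
Wnt7a: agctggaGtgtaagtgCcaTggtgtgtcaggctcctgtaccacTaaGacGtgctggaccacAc
Wnt7b: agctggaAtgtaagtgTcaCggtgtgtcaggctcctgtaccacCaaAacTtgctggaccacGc
The longest run shared by the coding sequences of Wnt7a and Wnt7b was 23 bases, shorter than a read. Wnt7a lies on chromosome 6 of GRCm38 at chr6:91363981-91411363 on the minus strand, and Wnt7b at chr15:85535437-85582473, also on the minus strand.

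Fzd1 and Fzd2 came closer to the length of a read. Their longest shared coding run was 47 bases, as was that of Fzd1 and Fzd7, and no other pair of members within a family exceeded 38 bases. The 87-base window around the run (coding positions 1184 to 1270 in Fzd1 and 989 to 1075 in Fzd2) holds only 2 differing bases, again in capitals.
Fzd1: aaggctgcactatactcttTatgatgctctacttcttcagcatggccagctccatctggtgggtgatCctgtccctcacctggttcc
Fzd2: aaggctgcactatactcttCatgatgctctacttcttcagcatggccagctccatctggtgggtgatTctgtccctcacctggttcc
Both genes have a single exon, Fzd1 at chr5:4753839-4758035 on the minus strand and Fzd2 on chromosome 11 on the plus strand. No 50-base run of the counted transcripts of Wnt7a, Wnt7b, Fzd1, Fzd2, Fzd9, Wnt6, Dkk3 or Lrp6 occurred in the transcripts of another gene. For Sfrp1, 17 of 4323 runs (0.393%) did, spread over 522 other genes. Such sharing was largest for Fzd5 (16.6% of its runs), Sfrp2 (12.9%) and Wnt11 (9.26%), each with a gene on the opposite strand, and the strand of a read is not given in the sources used here. Wnt7b also overlaps AU022754, a gene on the opposite strand.

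The purified RNA held a small part of the family at appreciable levels, led by the antagonist-like gene Dkk3. Markers of other cell types were present in the same RNA, and the cells behind the counts of each member were not tested. Levels are compared between genes as CPM per kilobase of transcript. Of the 40 members, 17 had at least 3 counts in every library, 8 stayed under 3 counts in every library, and 5 of those 8 (Dkk1, Dkk4, Wnt3a, Wnt9b and Wnt11) had no count in any library. The other 3 were Wnt1, Wnt8a and Wnt10b. Per library, no count allows a level of up to 0.0926 to 0.199 CPM, an upper limit that covers counting error only.

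**Figure D1:**
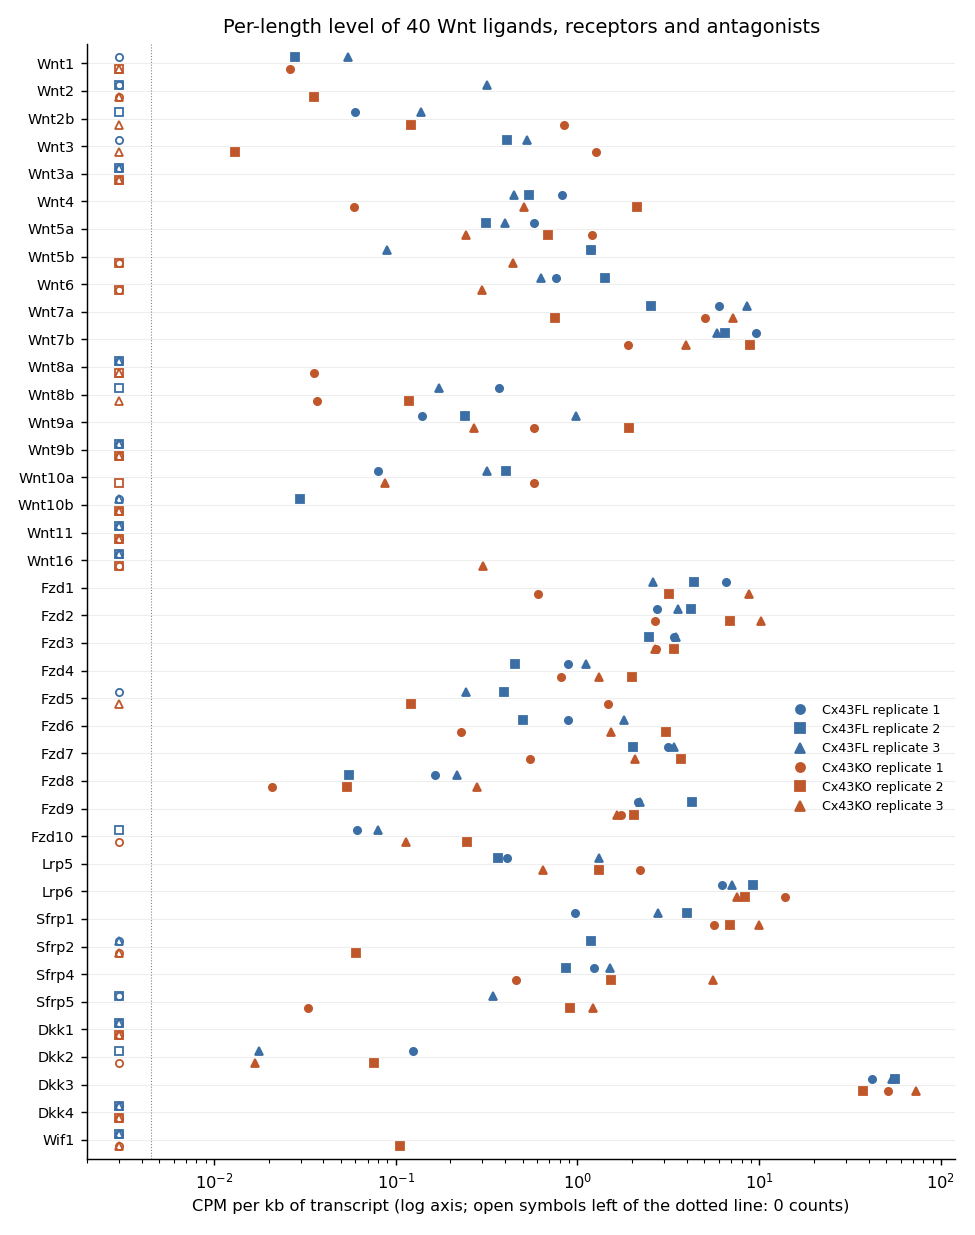
Level of each of the 40 members in CPM per kilobase of transcript (log axis), with 1 symbol for each library, blue for the 3 labelled Cx43FL and orange for the 3 labelled Cx43KO. Open symbols left of the dotted line are libraries with no count, and Dkk3, at 37.4 to 72.6, lies to the right of all other members.

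Dkk3, which encodes a secreted DKK relative that differs from DKK1 in not being a clear LRP antagonist, had 41.8, 55.9 and 53.6 CPM per kb in the libraries labelled Cx43FL and 51.3, 37.4 and 72.6 in those labelled Cx43KO. It supplied 99.7% to 100% of the summed Dkk level in each library. Lrp6, the co-receptor, followed with 7.52 ± 1.54 CPM per kb (SD, n = 3) in Cx43FL and 9.89 ± 3.38 in Cx43KO, and made up 84.3% to 96.2% of the summed Lrp level. In both groups Dkk3 and Lrp6 were the only neighbours in the order of mean levels whose libraries did not overlap. The other 23 of 24 neighbouring pairs overlapped, Lrp6 and the gene after it included. The 3 libraries thus resolve the place of Dkk3 but not the order of neighbours after it. Genes further apart could separate, since in Cx43FL the lowest Lrp6 library (6.24) lay above the highest Fzd2 library (4.2). With the counts of all transcripts of a gene summed, the Cx43FL means of Wnt7b (9.84) and Wnt7a (4.20) stood above that of Lrp6 (3.57), and Dkk3 (22.6) above these.

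Next in the order of the Cx43FL means were Wnt7b at 7.32 ± 2.04, Wnt7a at 5.71 ± 3.03, Fzd1 at 4.51 ± 1.96, Fzd2 at 3.50 ± 0.737, Fzd3 at 3.12 ± 0.560, Fzd9 at 2.88 ± 1.21, Fzd7 at 2.85 ± 0.741 and Sfrp1 at 2.59 ± 1.54 CPM per kb (SD, n = 3). Among the ligands Wnt7a and Wnt7b carried most of the signal, with 66.4% to 79.7% of the summed Wnt level in the libraries labelled Cx43FL and 60.0% to 83.8% in those labelled Cx43KO. Their balance was not stable between libraries. The ratio of Wnt7b to Wnt7a per length was 1.61, 2.54 and 0.679 in Cx43FL and 0.377, 11.8 and 0.554 in Cx43KO, so that either gene could lead within either group. The leading Frizzled also differed between libraries, being Fzd1 in 2 libraries, Fzd2 in 3 and Fzd3 in 1.

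All 13545 genes with enough counts entered the edgeR quasi-likelihood comparison of the groups, and a gene was called at an adjusted p below 0.05 with a mean normalized count above 50 in the higher group. None of the 24 members that entered the test was called. The background was itself near 0, since 1 of the 13545 genes, or 0.00738%, was called. That gene was Prm1, which encodes a sperm chromatin protein and which is named after its values were seen; it had no count in any library labelled Cx43FL and 571, 665 and 705 counts in those labelled Cx43KO. DESeq2 with its normal prior on fold changes called 0.834% of all tested genes and none of the 18 members to which it gave an adjusted p, the lowest being 0.221. It gave none to the other 6 (Fzd8, Sfrp5, Wnt3, Wnt5b, Wnt6 and Wnt10a), which could therefore not be called. The tested members were 9 Wnt genes, 9 Fzd genes, Lrp5, Lrp6, 3 Sfrp genes and Dkk3, and the other 16 had too few counts.

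The log2 difference, Cx43KO minus Cx43FL, was positive for 14 tested members and negative for 10, with a median of 0.41 against 0.071 over all tested genes. It ran from -3.13 for Wnt6 to 2.63 for Sfrp5. The standard errors, from 0.31 to 1.98, were large against these differences, and 16 of the 24 members differed by less than 1 standard error and 1 by more than 2. At an unadjusted p below 0.05, 1 member (Sfrp1) was higher and none was lower, beside 5.63% of all tested genes higher and 2.64% lower. Every library labelled Cx43KO lay above every library labelled Cx43FL for 1 of 24 members, where the share over all tested genes was 8.08%, and below for 2 of 24, where it was 7.45%. These counts are of the size that the background shares give for 24 genes.

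**Figure D2:**
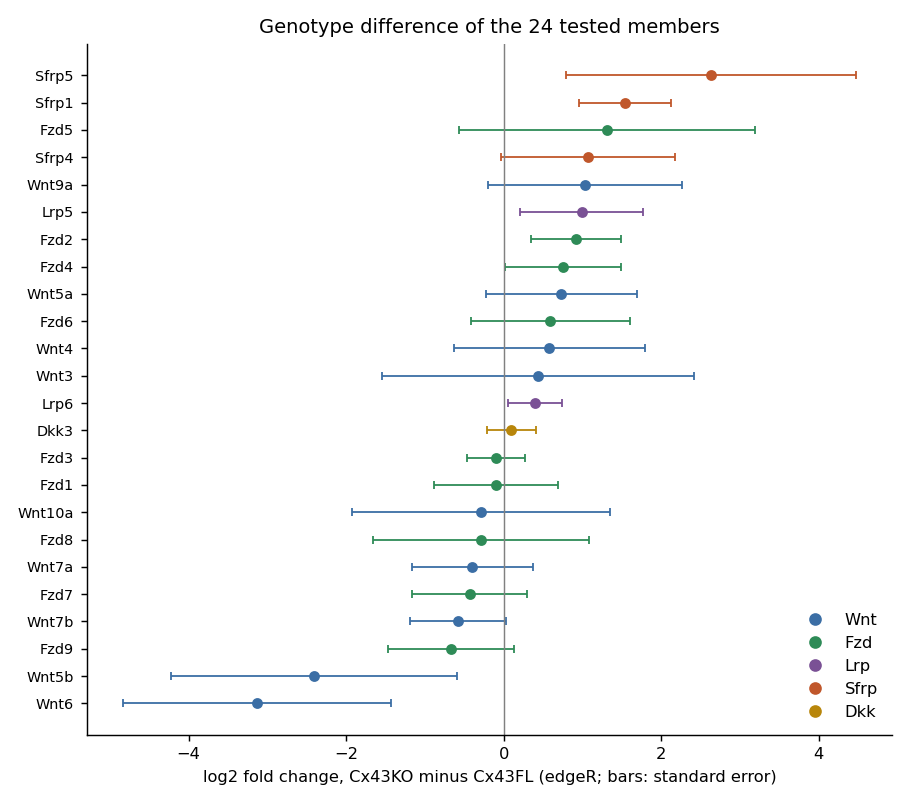
Log2 difference of each of the 24 tested members, Cx43KO minus Cx43FL, with bars of 1 standard error from edgeR, coloured by family. Values run from -3.13 to 2.63, the 3 Sfrp genes lie right of 0, and most bars of Wnt and Fzd genes cross 0.

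Of the 19 ligands, 4 tested Wnt genes had a positive difference and 5 a negative one, with a median of -0.29. Wnt7b had 30.2, 20.3 and 18.3 CPM in the libraries labelled Cx43FL and 5.96, 27.7 and 12.4 CPM in those labelled Cx43KO. The highest library was of one group and the next of the other, and the difference of -0.58 (SE 0.61) had an adjusted p of 0.787 by edgeR. Wnt7a had 19.0, 8.09 and 27.3 CPM against 16.0, 2.37 and 22.7 CPM, again with overlapping groups and a difference of -0.40 (SE 0.77, adjusted p = 0.891 by edgeR). Within each group the lowest Wnt7a library was replicate 2.

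Wnt6 was the ligand whose groups did not overlap. It had 24, 44 and 20 counts in the libraries labelled Cx43FL, which are 1.58, 2.92 and 1.30 CPM. The libraries labelled Cx43KO had 0, 0 and 20 counts, or 0, 0 and 0.617 CPM. All Cx43KO values were thus below all Cx43FL values, at a depth of 44 counts at most. The log2 difference was -3.13 (SE 1.70, adjusted p = 0.613 by edgeR), and the exact 2-sided permutation p was 0.1, the smallest that 3 libraries against 3 allow. Wnt6 lies at chr1:74771892-74785322 on the plus strand.

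Wnt5b, a ligand of the β-catenin-independent branch, had counts of 39, 39 and 3 against 0, 0 and 31, so its groups overlapped (log2 difference -2.41, SE 1.81, and -7.95 without Cx43KO replicate 3, which leaves that group with no counts). Its close relative Wnt5a, of the same branch, had 4.02, 2.19 and 2.80 CPM in Cx43FL and 8.44, 4.82 and 1.70 CPM in Cx43KO, with a difference of 0.73 (SE 0.96). The Wnt5 pair thus differed in sign, and neither passed the test.

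The remaining tested ligands, Wnt3, Wnt4, Wnt9a and Wnt10a, had differences from -0.29 to 1.03 with standard errors from 1.21 to 1.98. Single libraries set several of these values. Wnt3 had 63 counts in Cx43KO replicate 1 but 1 and 0 in the others of that group, and Wnt4 had 222 counts in Cx43KO replicate 2 against 4 and 69. Of the ligands left out of the test, Wnt2b had 45 counts in Cx43KO replicate 1 and 10 or fewer elsewhere, and Wnt16 had 32 counts in Cx43KO replicate 3 and none in the other 5 libraries. Wnt2 had 11 counts and Wnt8b 19 counts at most, both in a Cx43FL library.

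Among the receptors, 6 of the 11 tested genes had a positive difference and 5 a negative one, and none was called. Fzd9, a Frizzled first studied for its place in the region deleted in Williams syndrome, had 4.94, 9.82 and 5.08 CPM in the libraries labelled Cx43FL. Its levels were 3.97, 4.70 and 3.80 CPM in those labelled Cx43KO. The groups did not overlap, but the gap between the lowest Cx43FL and the highest Cx43KO library was small beside the spread within Cx43FL. The log2 difference was -0.67 (SE 0.80, adjusted p = 0.811 by edgeR), with an exact permutation p of 0.1. Fzd9 has a single exon at chr5:135248938-135251230 on the minus strand.

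Fzd1 had 27.4, 18.4 and 10.9 CPM in Cx43FL and 2.55, 13.3 and 36.9 CPM in Cx43KO. The lowest and the highest of the 6 libraries were thus both labelled Cx43KO, and the difference was -0.10 (SE 0.79, adjusted p = 0.980 by edgeR). Fzd2, with 152, 232 and 201 counts against 158, 631 and 1211, had the lowest p of the receptors and a difference of 0.92 (SE 0.57, adjusted p = 0.647 by edgeR). Without Cx43KO replicate 1 the difference was 1.28 (unadjusted p = 0.0163, adjusted p = 0.463 by edgeR). In CPM, that library lay below all Cx43FL libraries for Fzd2 while the other libraries of its group lay above. Fzd3, a receptor known for axon guidance and planar polarity, was the steadiest Frizzled, with 43.3, 31.5 and 44.4 CPM against 34.3, 43.2 and 34.1 CPM (difference -0.095, SE 0.37).

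Fzd4, the receptor that norrin also uses, differed by 0.75 (SE 0.74), Fzd5 by 1.31 (SE 1.88), Fzd6 by 0.59 (SE 1.01), Fzd7 by -0.43 (SE 0.73) and Fzd8 by -0.29 (SE 1.37). Fzd10, the only Frizzled left out of the test, had 20 counts at most. The co-receptor Lrp6 had 58.4, 86.4 and 66.4 CPM in Cx43FL and 129, 78.1 and 70.9 CPM in Cx43KO. Its groups overlapped apart from the high Cx43KO replicate 1 (difference 0.40, SE 0.34, adjusted p = 0.741 by edgeR). Lrp5, the other co-receptor, was lower per length than Lrp6 in every library and differed by 0.99 (SE 0.78), with 3.62, 3.25 and 11.7 CPM against 19.7, 11.6 and 5.74 CPM. Here too Cx43KO replicate 1 was the highest library. Lrp6 lies at chr6:134446476-134566965 and Lrp5 on chromosome 19, both on the minus strand, and the Lrp5 transcript with the highest count is annotated as a target of nonsense-mediated decay.

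**Figure D3:**
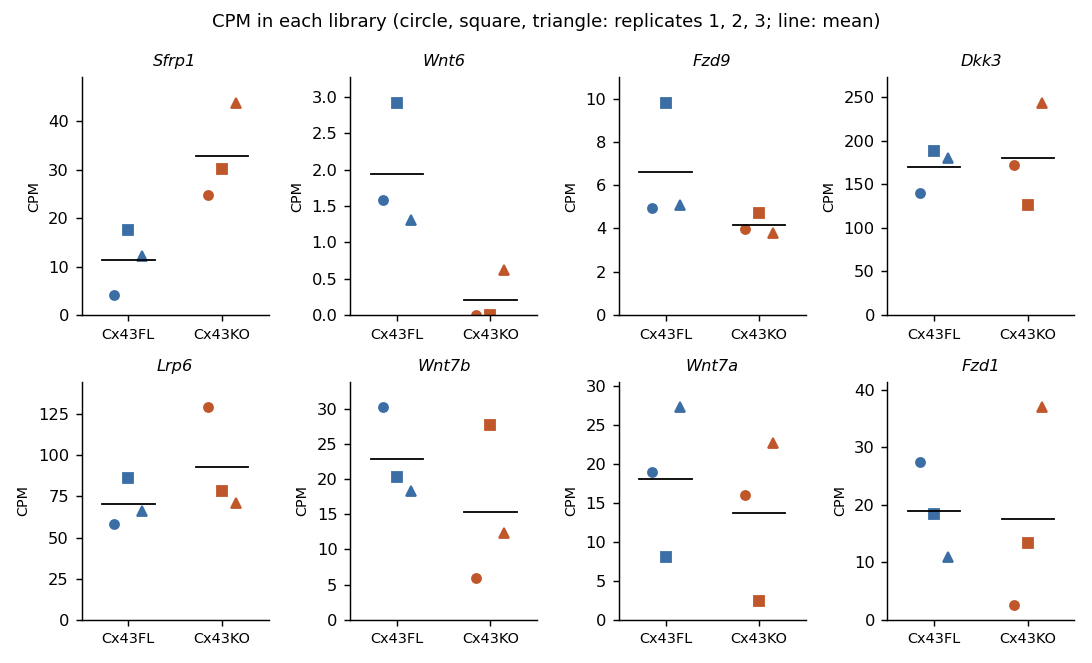
CPM in each library for 8 members, with circles, squares and triangles for replicates 1 to 3, blue for libraries labelled Cx43FL, orange for those labelled Cx43KO, and a line at the mean. Sfrp1 is above, and Wnt6 and Fzd9 are below, in all 3 libraries labelled Cx43KO, while the groups overlap for Dkk3, Lrp6, Wnt7b, Wnt7a and Fzd1.

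The antagonists held the member with the lowest p. Sfrp1, a secreted decoy that carries a Frizzled-like Wnt-binding domain, had 4.22, 17.6 and 12.1 CPM in the libraries labelled Cx43FL, from 64, 265 and 186 counts. It had 24.7, 30.1 and 43.9 CPM in those labelled Cx43KO, from 398, 749 and 1421 counts. All 3 Cx43KO libraries lay above all 3 Cx43FL libraries, and the mean was 2.91 times as high (32.9 ± 9.88 against 11.3 ± 6.72 CPM, SD, n = 3). The log2 difference was 1.54 (SE 0.58), with an unadjusted p of 0.0227 and an adjusted p of 0.554 by edgeR over all tested genes, an adjusted p of 0.221 by DESeq2, and an exact permutation p of 0.1. The difference therefore did not pass the test. With 1 library left out it stayed at 1.13 or more, and the unadjusted p by edgeR was 0.0861 without Cx43FL replicate 1, 0.0531 without Cx43FL replicate 3 and 0.0754 without Cx43KO replicate 3. Sfrp1 lies on chromosome 8 from 23411502 to 23449632 on the plus strand.

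Several marker lists were also higher in the libraries labelled Cx43KO, and the others overlapped between the groups in their sums. The overlapping lists were those of astrocytes, oligodendrocytes, their precursors, endothelial cells, mural cells, fibroblasts, and hippocampal granule and pyramidal neurons. That last list had sums of 193 to 216 CPM for Cx43FL beside 201 to 445 CPM for Cx43KO. Of its 6 genes, 0 lay above in every Cx43KO library, where the share of all tested genes was 8.08%. The 5 choroid plexus markers summed to 459 to 15295 CPM in Cx43FL and to 22029.7 to 32774 CPM in Cx43KO, with 4 of 5 genes above in every Cx43KO library and Folr1 at no count in Cx43FL replicate 2. The 9 microglia markers summed to 19.1 to 32.5 CPM against 67.4 to 131 CPM, 4 of 9 genes lying above, with Itgam and C1qa at no count in Cx43FL replicate 2, C1qa also in replicate 1 and Tmem119 in Cx43KO replicate 1. The 11 neuron markers summed to 2071 to 2794 CPM against 2897 to 7459.8 CPM, 3 of 11 lying above and none at 0 in a library, and the 4 ependyma markers to 21.0 to 26.6 CPM against 50.6 to 62.8 CPM, 2 of 4 lying above. The part of these cells in the Sfrp1 difference was not tested. The choroid plexus sums were 32774, 26216 and 22029.7 CPM in Cx43KO replicates 1 to 3, where Sfrp1 was 24.7, 30.1 and 43.9 CPM. Within Cx43FL, replicate 2 had the lowest sum of choroid plexus markers, 459 CPM, and the highest Sfrp1 value, 17.6 CPM. The microglia sums were 27.3, 32.5 and 19.1 CPM in Cx43FL and 68.5, 67.4 and 131 CPM in Cx43KO. Within each group they were highest in the library where Sfrp1 was highest. The ependyma sums were 26.6, 21.6 and 21.0 CPM against 52.3, 50.6 and 62.8 CPM. The neuron sums were 2071, 2691 and 2794 CPM against 7459.8, 2897 and 4248 CPM. Sostdc1, another secreted Wnt antagonist, named after its values were seen, had 32.6, 0.332 and 57.1 CPM in Cx43FL and 51.0, 49.4 and 154 CPM in Cx43KO, and was lowest in Cx43FL replicate 2. In such purified RNA, more cells of a type and more RNA per cell cannot be told apart.

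**Figure D4:**
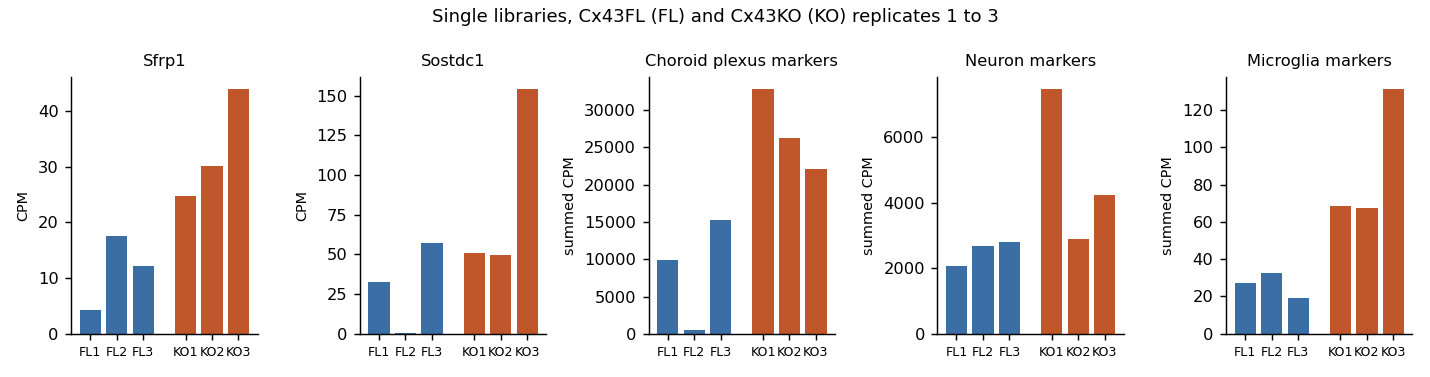
CPM of Sfrp1 and Sostdc1 and summed CPM of the choroid plexus, neuron and microglia markers in each library, with bars from 0, blue for libraries labelled Cx43FL (FL1 to FL3) and orange for those labelled Cx43KO (KO1 to KO3). FL2 has the lowest bar for Sostdc1 (0.332 CPM) and for choroid plexus markers (459 CPM). Within its group FL2 has the highest bar for Sfrp1 (17.6 CPM) and for microglia markers (32.5 CPM), and the part of these cells was not tested.

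The other 3 tested antagonists also had positive differences, with a median of 1.30 over the 4 including Sfrp1, none of them called. Over all 13545 tested genes, 7365 differences were positive. Of the 5 tested genes on the list of other inhibitors, Sostdc1 included, 2 were positive and 3 negative, with a median of -0.01. Sfrp4 had 2.17, 1.53 and 2.67 CPM against 0.807, 2.69 and 9.82 CPM (difference 1.07, SE 1.11), so that the lowest and the highest library were both labelled Cx43KO. Sfrp5 had 0, 0 and 10 counts against 1, 43 and 75 counts (difference 2.63, SE 1.84, and 7.84 without Cx43FL replicate 3, which leaves that group with no counts). Both are Sfrp1 relatives, and neither separated the groups. Dkk3 had 140.3, 188 and 180.1 CPM against 172, 126 and 244 CPM, overlapping groups with a difference of 0.093 (SE 0.31, adjusted p = 0.945 by edgeR), the smallest standard error among the members. Dkk3 lies at chr7:112116017-112159057 on the minus strand. Of the antagonists left out of the test, Sfrp2 had 36 counts in Cx43FL replicate 2, 3 in Cx43KO replicate 2 and none elsewhere, Dkk2 had 7 counts at most, and Wif1 had 6 counts in Cx43KO replicate 2 only.

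The spread of the members between libraries of a group is given as a description, with no test. The median SD of log2 CPM was 0.58 for the members against 0.42 for all tested genes in Cx43FL, and 1.02 against 0.65 in Cx43KO. Cx43KO replicate 1 was the lowest of the 6 libraries for 8 of 24 members, among them Wnt7b, Fzd1, Fzd7 and Sfrp4, and the highest for 6, among them Wnt3, Wnt5a, Fzd5, Lrp5 and Lrp6. Over all tested genes this library was lowest for 29.7% and highest for 30.3%, against 33.3% and 25.0% of the members. It also had the highest neuron marker sum, 7459.8 CPM, and the lowest astrocyte marker sum, 8112 CPM, and the part of this in the members' values was not tested.

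The rest of the pathway was read from a list of 60 genes, by role, of which 52 were tested. None was called, 30 had a positive and 22 a negative difference, and the median was 0.16. At an unadjusted p below 0.05 by edgeR, 2 were higher (Lgr6 and Celsr2) and 1 lower (Dvl1), and 3 lay above in every Cx43KO library (Lgr6, Celsr2 and Znrf3) and 1 below (Dvl1), against the background shares given for the members. By DESeq2 without the prior, which called 1.01% of all tested genes, Lgr6 was called.

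Among the genes that tune receptor number, Lgr6, a receptor for R-spondins, had 5, 0 and 7 counts in the libraries labelled Cx43FL and 38, 317 and 208 in those labelled Cx43KO. The groups were far apart at low depth, with a log2 difference of 4.74 (SE 1.39, adjusted p = 0.490 by edgeR). The adjusted p was 0.0513 by DESeq2 with the prior and 0.0137 without it. Znrf3, a ubiquitin ligase that removes Frizzled receptors from the surface, had 27.1, 35.6 and 14.4 CPM against 43.5, 39.7 and 44.2 CPM (difference 0.73, SE 0.43, adjusted p = 0.635 by edgeR). The 8 tested genes of this module had a median difference of 0.12, with 5 positive.

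Celsr2, an atypical cadherin of the planar polarity branch, had 32.7, 29.1 and 26.2 CPM in Cx43FL and 113, 45.5 and 65.2 CPM in Cx43KO. Its highest library was Cx43KO replicate 1, the library with the highest summed CPM of neuron markers, and the part of neurons in these values was not tested. The difference was 1.35 (SE 0.40, adjusted p = 0.492 by edgeR), and with summed transcripts it was 0.83 (SE 0.42, unadjusted p = 0.0763 by edgeR). Without Cx43KO replicate 1 it was 0.91 (SE 0.36, unadjusted p = 0.026, adjusted p = 0.509 by edgeR). In all, 6 of the 7 genes of that branch had a positive difference. Dvl1, a cytoplasmic relay below the Frizzled receptors, had 22.6, 58.8 and 22.8 CPM against 10.1, 21.5 and 13.2 CPM, a difference of -1.22 (SE 0.54, adjusted p = 0.592 by edgeR). The difference rested in part on Cx43FL replicate 2: without that library it was -0.62 (unadjusted p = 0.304 by edgeR), and the unadjusted p was also above 0.05 without Cx43KO replicate 1 (0.0834) or replicate 3 (0.0939) and with the replicate block (0.0501). The exons of Dvl1 overlap Tas1r3 on the opposite strand. Of the 14 intracellular genes 10 had a positive difference and 7 differed by less than 1 standard error. Over all 13545 tested genes, 7365 were positive. The 4 negative intracellular genes were Dvl1, its relatives Dvl2 (-0.38, SE 0.42) and Dvl3 (-0.46, SE 0.40), and Csnk1a1 (-0.25, SE 0.25).

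Tspan12, a tetraspanin partner of Fzd4 in norrin signalling, had 161, 93.1 and 225 CPM in Cx43FL and 68.4, 153 and 78.5 CPM in Cx43KO, with overlapping groups (difference -0.67, SE 0.41, adjusted p = 0.638 by edgeR). Axin2, a feedback inhibitor often read as a target of β-catenin signalling, had 53.4, 26.9 and 22.1 CPM against 11.7, 16.0 and 37.5 CPM (difference -0.65, SE 0.56, adjusted p = 0.737 by edgeR). Lef1, a transcription factor that works with β-catenin, differed by -0.28 (SE 0.57), and Ctnnb1, which encodes β-catenin, by 0.34 (SE 0.29). On the secretion side, Wls, the carrier of Wnt proteins, differed by -0.14 (SE 0.59) and Porcn, which encodes Porcupine, by 0.47 (SE 0.60). For all of these the libraries of the groups overlapped. Notum, which removes the lipid from Wnt proteins, and Sp5, a target gene, were too low to be tested and are named after their values were seen. The control libraries held no Notum count and the libraries labelled Cx43KO held 19, 7 and 105. The exons of Notum overlap Myadml2os and Notumos on the opposite strand, and the strand of a read is not given. Sp5 had 19, 2 and 32 counts against 2, 2 and 0.

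**Figure D5:**
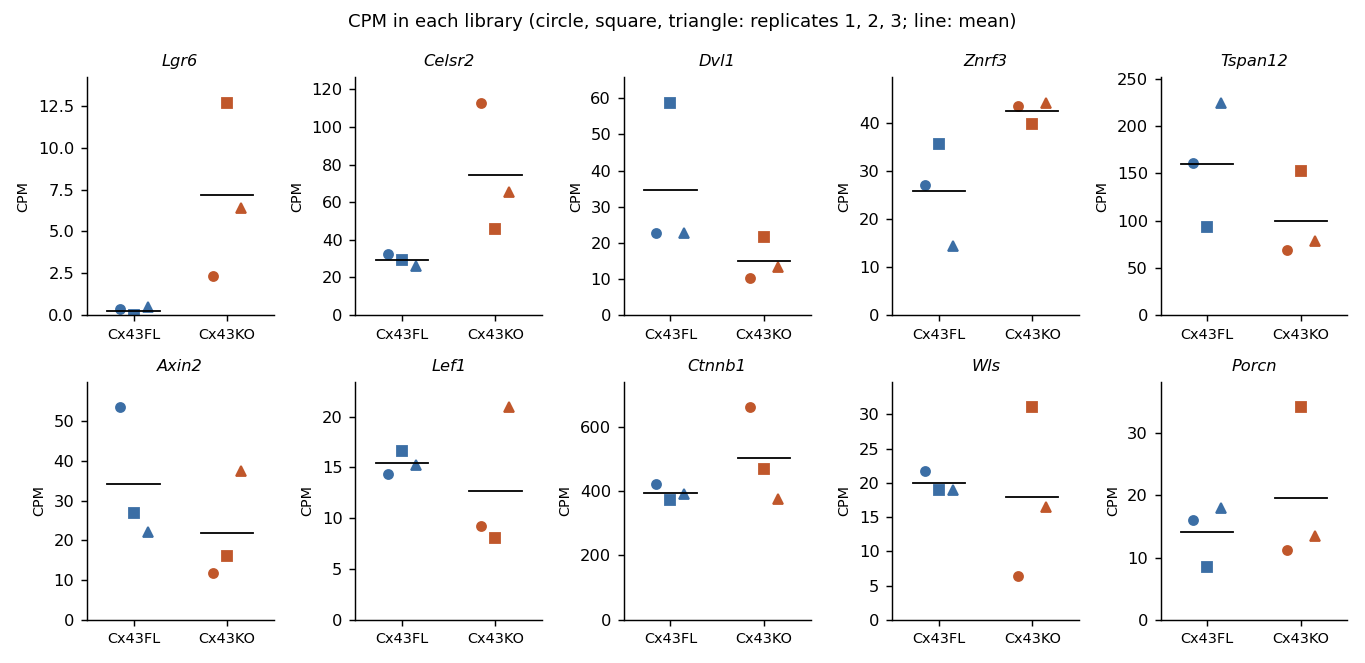
CPM in each library for 10 other genes of the pathway, with circles, squares and triangles for replicates 1 to 3, blue for libraries labelled Cx43FL, orange for those labelled Cx43KO, and a line at the mean. Lgr6, Celsr2 and Znrf3 are higher and Dvl1 is lower in every library labelled Cx43KO, and none of the 10 was called by edgeR.

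The promoters of the family were read as sequence for what its members share, taken from RefSeq windows of 300 bases around the start of transcription (GRCm38.p6). There were 29 windows, of 26 of the 40 members. Sfrp1, Dkk3, Wnt7b and Fzd2 were among those without a window, while members with no count, such as Dkk1 and Wnt11, had one. The shares below therefore do not describe the counted members as such. Their median GC content was 66.7% against 52.7% over all 32851 promoters. The GC box GGGCGG, on either strand, was in 75.9% of the members' promoters and 35.7% of all, and the TATA motif TATAAA in 13.8% and 8.32%. The TCF/LEF motif, searched as CTTTGAA or CTTTGAT on both strands, was in 10.3% of the members' promoters (Dkk1, Wnt11 and Wnt5b) and 8.65% of all. A counted and an uncounted member are shown as the promoters of Fzd9, with 64 to 148 counts in each library, and Dkk1, with no count in any, chosen after their values were seen. Capitals mark the TCF/LEF match, on the same strand as Dkk1 and 117 bases before the start of transcription assumed for the window. The annotation used for the counts begins Dkk1 further upstream, at 30549665, so the match lies inside the annotated gene. That annotation also begins Fzd9, at 135251230, upstream of the start assumed for its window.
Fzd9 (minus strand, chr5:135250998-135251297): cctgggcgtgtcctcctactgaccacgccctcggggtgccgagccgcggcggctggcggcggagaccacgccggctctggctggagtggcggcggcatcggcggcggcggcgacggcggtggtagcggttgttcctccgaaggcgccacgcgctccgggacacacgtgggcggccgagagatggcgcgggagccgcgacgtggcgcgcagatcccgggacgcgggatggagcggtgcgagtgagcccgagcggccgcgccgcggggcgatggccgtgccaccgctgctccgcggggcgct
Dkk1 (minus strand, chr19:30549447-30549746): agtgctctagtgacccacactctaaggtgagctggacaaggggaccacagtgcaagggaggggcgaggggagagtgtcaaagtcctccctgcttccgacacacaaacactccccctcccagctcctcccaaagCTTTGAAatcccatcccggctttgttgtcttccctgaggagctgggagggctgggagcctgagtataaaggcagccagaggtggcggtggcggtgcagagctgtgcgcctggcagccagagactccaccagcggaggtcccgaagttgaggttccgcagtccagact
The Fzd9 window was 78.0% GC with 53 CpG dinucleotides, and the Dkk1 window 60.7% GC with 9. A match of letters is a description of the window and not a site of binding.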

How the data were processed

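TRAP RNA from 3 hippocampal libraries labelled Cx43FL and 3 labelled Cx43KO was amplified (NuGEN Ovation) and sequenced in 50-base reads. The authors filtered reads with Eoulsan, aligned them with STAR to mm10 (Ensembl annotation), removed reads that mapped more than once, and counted with HTSeq 0.5.3 (bcl2fastq 1.8.4 for base calls). The deposited values are raw counts for 75466 Ensembl transcripts. Reads were counted on every overlapping transcript, since transcripts of a gene often hold equal counts. The rule for strand is not given in the sources used here.

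Symbols came from GENCODE vM21 (GRCm38), which matched 73157 transcripts and not the other 2309, and each of 22086 genes took the values of the transcript with the most counts over all libraries. Counts on genes ranged from 14787303 to 34733473 per library. Genotypes were compared in edgeR 4.0.16 (TMM, filterByExpr, quasi-likelihood F test, Benjamini-Hochberg over 13545 genes; R 4.3.3). The standard error is the log2 difference divided by the square root of F. CPM were counts per 1e6 of the library's effective size after TMM. Single genes were also compared by exact 2-sided permutation of log2(CPM + 0.5) in scipy 1.17.1. DESeq2 1.42.0, run on the same filtered genes, was an alternative, as were its size factors, no filter, summed transcripts, a replicate block and leaving out each library. Replicate numbers did not pair the libraries. No libraries agreed within counting noise (chi-square per degree of freedom of at least 33.5).

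Members and lists were chosen with earlier results of these data known. Named members were those with an unadjusted p below 0.05, those with groups that did not overlap, the highest per length in Cx43FL of each family and the 5 highest over all. Named pathway genes were the 5 with the lowest p plus Axin2, Lef1, Ctnnb1, Wls and Porcn. Other members are given in ranges or with their values for completeness. The 2 genotypes carry library numbers from separate ranges, and batch cannot be told apart from genotype.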

Additional observations from a re-analysis of the deposited data

How the results depend on the processing

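No member was called by edgeR at the adjusted p under any alternative run, and 206 of 210 values of named genes with all libraries kept had the same sign and side of the threshold. The exceptions were Fzd5 (-1.37), Wnt3 (-3.50) and Wnt4 (-0.28) with the replicate block, and Lgr6, called by DESeq2 without the prior (4.78). The replicate block called 2 genes higher in all; same-numbered libraries were not correlated (0.0114, -0.00402 and -0.0547), so the numbers were taken as names and the pairing as absent. All genes called higher numbered 99 by DESeq2 with the prior, 118 without, 0 with summed transcripts and 763 at an unadjusted p; lower calls were 14, 19 and 358 by DESeq2 with the prior, without it and at an unadjusted p. At an unadjusted p, 1 member was higher, and 2 other pathway genes were higher and 1 lower; DESeq2 without the prior called 1 pathway gene higher.

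With 1 library left out, the genes called higher ran from 0 to 11, reaching 11 without Cx43KO replicate 1 and 0 without each of the others. Members above in all Cx43KO libraries ran from 1 to 5 (2 without Cx43FL replicate 2, 4 without Cx43FL replicate 3, 5 without Cx43KO replicate 1, 2 without Cx43KO replicate 3), and members below ran up to 4, without Cx43KO replicate 3. Of 210 such values of named genes, 23 changed sign, all of differences smaller than their standard error. The ranges of those genes were -0.19 to 0.30 for Dkk3, -1.25 to 0.40 for Fzd1, -1.81 to 2.09 for Fzd5, -0.28 to 1.20 for Fzd6, -1.12 to 0.024 for Fzd7, -1.92 to 0.18 for Fzd8, -0.27 to 1.55 for Sfrp4, -2.52 to 0.30 for Wnt10a, -5.30 to 1.04 for Wnt3, -1.07 to 1.13 for Wnt4, -0.98 to 0.095 for Wnt7a, -0.099 to 2.28 for Wnt9a, -0.78 to 0.26 for Wls and -0.20 to 0.74 for Porcn. Wnt6 ran from -8.07 to -2.57 and Wnt5b from -7.95 to -1.85, the first value of each without Cx43KO replicate 3, and Sfrp5 from 2.02 to 7.84, the last without Cx43FL replicate 3. These extremes rest on a group with no counts and depend on the prior count. Dvl1 ran from -1.57 to -0.62, the last without Cx43FL replicate 2.

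Per-length levels in Cx43FL were lower with summed transcripts for 7 of the 8 named members (22.6 for Dkk3, 4.20 for Wnt7a, 3.57 for Lrp6, 2.03 for Fzd1, 1.30 for Fzd9, 1.16 for Sfrp1 and 0.42 for Wnt6) and higher for Wnt7b (9.84), which then stood with Wnt7a above Lrp6, since summing counts a read once per overlapping transcript. Dkk3, Fzd1, Fzd9, Sfrp1 and Wnt6 have 1 counted transcript each, so summing left their counts unchanged while the total that scales them rose. In Cx43FL replicate 1 that total was 33423491 counts over all transcripts, against 14787303 on genes. The lower levels of these genes are thus a matter of scale. For Wnt7a and Lrp6, with 3 counted transcripts each, the parts of scale and summing were not separated. Depth limits the tested members Wnt3, Wnt5b, Wnt6, Wnt10a, Fzd5 and Sfrp5, whose Cx43FL or Cx43KO counts include 0. The same holds for Lgr6, among other genes of the pathway.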
